A study of Mus musculus with 29 samples.

Results

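The transcripts examined were those of 10 circadian clock genes, Per1, Per2, Per3, Arntl, Clock, Dbp, Tef, Nr1d1, Nr1d2 and Cry1, in the hippocampus of 29 mice. The genes were chosen by symbol, and all 10 were found among the 31002 protein-coding and long non-coding genes of the expression table. All 10 also had a TPM (a share of all transcripts, corrected for transcript length) of at least 1 in at least 2 mice, the condition that 15554 genes met for testing. Mice were wild-type (WT, labelled C57BL/6N) or homozygous hAβ-KI (labelled C57BL/6NJ), in which the mouse App gene carries a humanized Aβ sequence in every cell that expresses it and an exon flanked by loxP sites. The groups were 7 WT and 8 hAβ-KI mice aged 2 months and 8 WT and 6 hAβ-KI mice aged 22 months, with 18 males and 11 females in all. The 2 strain labels coincide with the genotypes, so a difference between substrains cannot be told apart from a difference made by the knock-in allele. The mice were kept on a cycle of light and dark, and the time of day at which each was killed was not given in the sources used here. The study gives only an approximate number of reads per sample, and TPM keep no read depth. The depth of each library is therefore unknown, and the precision of each value is given by the spread between mice.

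The circadian clock is a loop of transcription and repression that runs in nearly every cell. Arntl (also called Bmal1) and Clock pair to switch on the Per and Cry genes through E-box sequences, and the PER and CRY proteins then return to the nucleus and repress that pair. A second loop runs through Nr1d1 and Nr1d2 (Rev-erbα and Rev-erbβ), which repress Arntl, and an output arm runs through the D-box binding factors Dbp and Tef. In the rodent forebrain most of these transcripts rise and fall over the day, Arntl in the opposite phase to the Per genes and Dbp, so mice killed at different hours would be expected to differ in them together.

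Promoter windows from 250 bases before to 50 bases after the start of transcription (RefSeq, assembly GRCm38.p6) were found for 9 of the 10 genes, 14 windows in all, with none for Per2. They were searched on both strands for the E-box CACGTG, its variant CACGTT, the D-box TTATGTAA or TTACGTAA, and a site of the Rev-erb type written as AGTAGGTCA, AGTGGGTCA or TAGGTCA. The windows of Per3 and Cry1 are shown because those genes varied between mice in a way described later, and the window of Dbp because it had the widest spread. Capitals mark the matches.
Per3 (chr4:151044616-151044915, minus strand): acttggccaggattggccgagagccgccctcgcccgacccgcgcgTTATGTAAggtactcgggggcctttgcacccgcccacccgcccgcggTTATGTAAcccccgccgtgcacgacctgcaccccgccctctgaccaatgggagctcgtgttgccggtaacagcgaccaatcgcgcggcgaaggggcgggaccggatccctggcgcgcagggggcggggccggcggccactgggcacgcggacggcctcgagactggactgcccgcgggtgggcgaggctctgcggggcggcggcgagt
Cry1 (chr10:85185005-85185304, minus strand): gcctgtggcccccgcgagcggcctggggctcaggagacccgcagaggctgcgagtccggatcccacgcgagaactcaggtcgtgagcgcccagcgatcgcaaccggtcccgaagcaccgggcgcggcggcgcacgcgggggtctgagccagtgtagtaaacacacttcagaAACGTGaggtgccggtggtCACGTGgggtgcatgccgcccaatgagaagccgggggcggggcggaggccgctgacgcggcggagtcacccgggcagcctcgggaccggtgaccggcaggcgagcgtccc
Dbp (chr7:45704997-45705296, plus strand): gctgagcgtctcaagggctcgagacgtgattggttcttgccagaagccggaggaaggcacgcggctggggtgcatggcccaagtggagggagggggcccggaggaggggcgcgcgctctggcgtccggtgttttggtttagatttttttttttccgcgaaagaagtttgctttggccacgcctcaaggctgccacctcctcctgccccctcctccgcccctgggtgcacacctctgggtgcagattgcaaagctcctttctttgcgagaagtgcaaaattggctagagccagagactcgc
The Per3 window held 2 D-boxes, which began 205 and 158 bases before the start, and a D-box was present in 1.06% of the 32851 windows of all genes. The Cry1 window held an E-box that began 60 bases before the start and, 79 bases before it, the variant read from the opposite strand as AACGTG. E-boxes were also present in both Tef windows and in 1 of the 2 Per1 windows, against 7.15% of all windows. Nr1d1 held the variant CACGTT, found in 4.68% of all windows, and 1 of the 2 Arntl windows held the Rev-erb type site, found in 2.88%. None of these motifs was found in the windows of Dbp, Clock or Nr1d2, which says only that these letters are not within those bases.

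Levels of the 10 genes in TPM spanned more than an order of magnitude, with the output gene Dbp on top and Clock at the bottom. Over all 29 mice Dbp averaged 85.3 ± 20.9 TPM (mean ± SD), Nr1d1 66.9 ± 5.24 and Tef 63.3 ± 5.29, and these 3 overlapped between mice. Nr1d2 followed at 20.2 ± 2.33 TPM and Arntl at 11.8 ± 1.31, without overlap between the lowest Nr1d2 value of 14.5 and the highest Arntl value of 14.4. Per3 (9.25 ± 1.74), Per1 (8.82 ± 1.04) and Cry1 (7.78 ± 1.01) came next, each overlapping with its neighbours and Per3 also with Arntl. Per2 averaged 5.64 ± 1.86 and Clock 4.07 ± 0.679, and these neighbours also overlapped. Reads were not assigned by strand, so transcripts of genes that overlap on opposite strands cannot be told apart. In the GENCODE M21 annotation, Dbp (chr7:45705088-45710203) shared 18% of its exon bases with Sphk2 and Nr1d1 (chr11:98767932-98775333) shared 8.55% with Thra. Tef shared 2.45% with Gm17597 and Arntl 0.439% with Gm45355. Per1, Per2, Per3, Clock, Nr1d2 and Cry1 shared no exon bases with another gene. Shared sequence is a separate matter. Of the 43-base stretches (the read length) of Nr1d2, 6.55% also occurred in 1 other gene. Of those of Per3, 0.33% were shared, with 439 genes.

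One feature of the libraries stood out before any comparison of groups. The library names carry numbers from 1 to 31 in which each group falls within its own run of 8 numbers. A difference between runs therefore cannot be told apart from one of genotype or age in any comparison of groups. The first or the last number of such a run is held by 6 libraries (1, 9, 16, 17, 24 and 25). Dbp, which encodes a transcription factor of the clock output, measured 53.5 TPM in library 1, 49.0 in library 9 and 35.9 in library 16, and 50.3, 55.4 and 64.7 TPM in libraries 17, 24 and 25. In the other 23 libraries Dbp ranged from 79.8 to 123 TPM with a median of 93.0, so that the 6 lowest of the 29 Dbp values were those of the 6 end libraries, without overlap. The 6 libraries came from all 4 groups, with 1 of the 7 young WT, 2 of the 8 young hAβ-KI, 2 of the 8 old WT and 1 of the 6 old hAβ-KI mice. Whatever sets these libraries apart was not tested, and since the split was recognised from the values themselves no test of it is given.

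The same libraries were the lowest for a small set of other genes. Of the 15554 genes tested, 161 (1.04%) were lower in all 6 end libraries than in each of the other 23, and 1 gene (0.00643%) was higher in all of them. Among the 10 clock genes Dbp was the single one of the 161, and the ranges of the other 9 overlapped. Among 22 further clock and clock-regulated genes the single one was Noct, which encodes a phosphatase with a strong daily rhythm, at 8.61 to 14.2 TPM in the end libraries and 25.2 to 38.6 in the others. Klf9 (of 12 glucocorticoid-responsive genes, 23.4 to 31.9 against 33.5 to 58.5 TPM) and Egr4 (of 12 genes regulated by neuronal activity, 2.08 to 5.62 against 8.31 to 22.3 TPM) were the single ones of their lists, and no gene of the marker lists of hippocampal neurons, glia, endothelium, choroid plexus, thalamus or blood was among the 161. Tef, the relative of Dbp with the same output role, had a median of 65.4 TPM in the end libraries and 62.2 in the others.

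**Figure D1:**
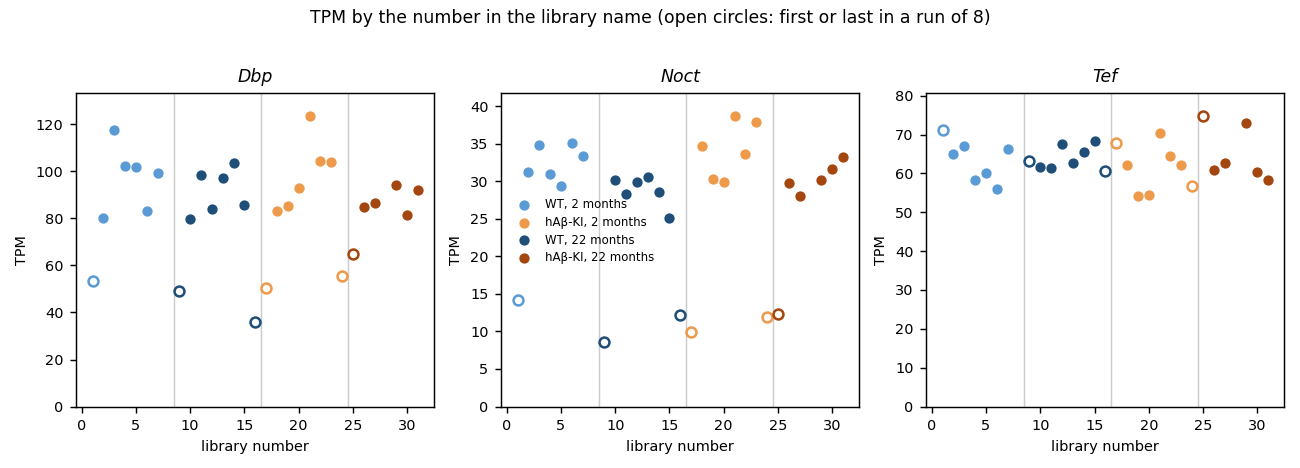
TPM (y axis, from 0) of Dbp, Noct and Tef in each of the 29 libraries against the number in the library name (x axis), coloured by group, with vertical lines between runs of 8 numbers and open circles for the first or last number of a run. The 6 open circles are the 6 lowest values of Dbp (35.9 to 64.7 TPM) and of Noct (8.61 to 14.2 TPM) but lie within the range of the others for Tef, except for the highest.

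The spread of Dbp between mice is given with and without these libraries. Since they are the 6 lowest Dbp values, its spread had to fall without them, and the fall is a description only. Over all 29 mice the SD of Dbp within groups was 0.42 on the log2(TPM + 1) scale, higher than or equal to that of 92.3% of all genes tested. Without the 6 end libraries it was 0.17, at the 51.5th percentile, and the highest of the remaining values was 1.55 times the lowest in place of 3.44 times. Per2 kept a wide spread, with 0.37 over all mice (88.5th percentile) and 0.35 over the 23 (88.7th percentile). Nr1d1 was the steadiest of the 10 genes, with 0.11 over all mice (15.1th percentile). The median SD of all genes tested was 0.187 with all libraries and 0.17 without the 6.

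**Figure D2:**
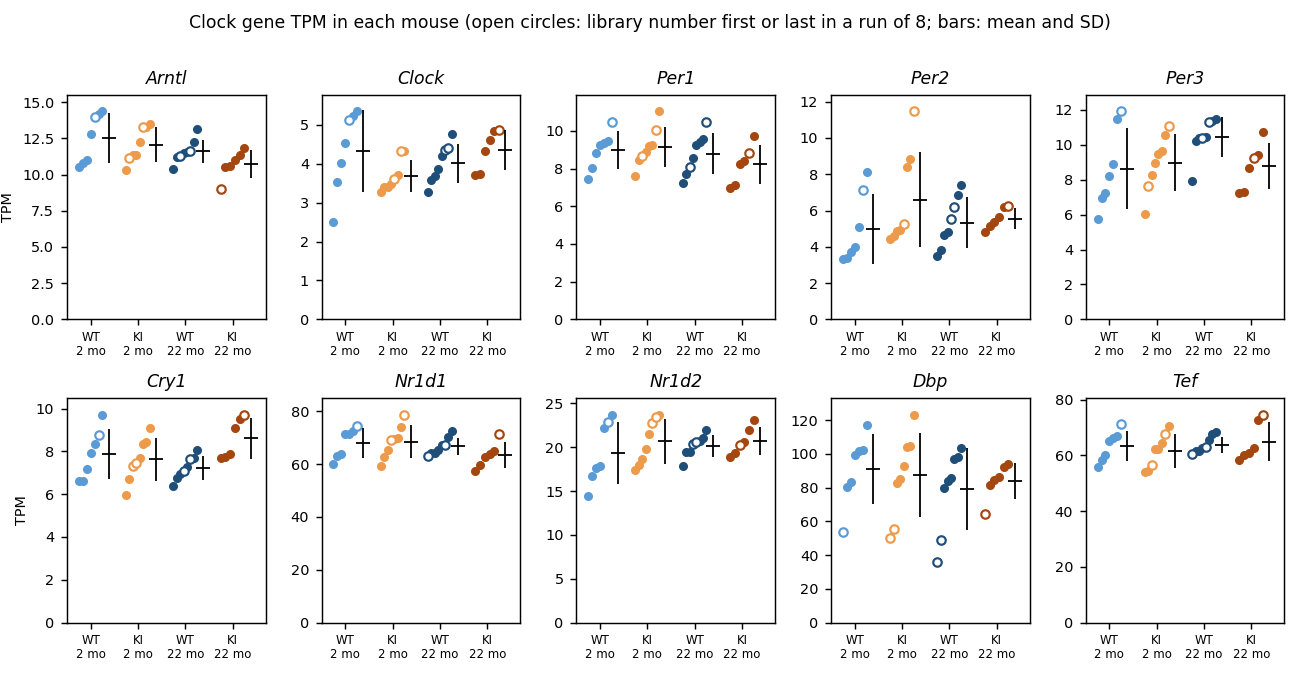
TPM (y axis, from 0) of each of the 10 clock genes in every mouse, by group on the x axis (WT and hAβ-KI, KI, at 2 and 22 months), with the mean and SD beside the points and open circles for libraries with the first or last number of a run of 8. The groups overlap for every gene, and the open circles stand below all other points in all 4 groups for Dbp alone.

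The comparison of genotypes at 2 months asked whether the knock-in changed these genes in young mice. None of the 10 clock genes passed the threshold (limma, Benjamini-Hochberg FDR under 0.1 and p value under 0.05), which 0.0386% of all genes tested passed. Log2 fold changes of TPM + 1 in hAβ-KI against WT mice lay between -0.16 (Clock) and 0.34 (Per2), with 5 genes positive, 5 negative and a median of -0.02, against -0.03 over all genes. Per2, which encodes a repressor of the loop and also responds quickly to stimulation, ranged from 3.31 to 8.1 TPM in young WT mice (median 3.99) and from 4.44 to 11.5 TPM in young hAβ-KI mice (median 5.1). Its groups overlapped and the difference of 0.34 had a 95% confidence interval from -0.03 to 0.71 (FDR = 0.802, limma). Over the 10 genes the intervals reached from -0.49 to 0.71, and they were wider for genes that varied more between mice.

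In the comparison of genotypes at 22 months again none of the 10 genes passed, against 0.495% of all genes tested. Cry1, whose protein is a main repressor of the Arntl and Clock pair, came nearest. It ranged from 6.39 to 8.08 TPM in old WT mice (median 7.18) and from 7.69 to 9.72 TPM in old hAβ-KI mice (median 8.49), so that the groups overlapped. The log2 fold change was 0.22 (SE 0.0849, 95% confidence interval 0.05 to 0.39, FDR = 0.332, limma), and 0.19 without the 6 end libraries (95% confidence interval -0.01 to 0.40, FDR = 0.411, limma). Females were 2 of the 8 old WT and 3 of the 6 old hAβ-KI mice. With a term for sex the fold change of Cry1 was 0.17 (FDR = 0.392, limma), the lowest of 40 alternative settings. Per3 had a log2 fold change of -0.23 (95% confidence interval -0.49 to 0.03, FDR = 0.566, limma), with 7.95 to 11.5 TPM in old WT mice and 7.26 to 10.7 TPM in old hAβ-KI mice. The remaining 8 genes had adjusted p values up to 0.954.

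Between 2 and 22 months in WT mice, 5% of all genes tested passed the threshold and none of the 10 clock genes did. Per3, the Per gene that is dispensable for the core loop, had the lowest p value. It ranged from 5.76 to 11.9 TPM in young WT mice (median 8.2) and from 7.95 to 11.5 TPM in old WT mice (median 10.4), and the young group spanned the whole range of the old one. The log2 fold change was 0.28 (95% confidence interval 0.02 to 0.53, FDR = 0.254, limma). In hAβ-KI mice 9.18% of all genes passed between the ages, and again none of the 10. Arntl, the partner of Clock, had the lowest p value there, at 10.3 to 13.5 TPM in young (median 11.8) and 8.98 to 11.9 TPM in old hAβ-KI mice (median 10.8). Its log2 fold change was -0.16 (95% confidence interval -0.31 to -0.002, FDR = 0.243, limma), and -0.11 without the 6 end libraries (95% confidence interval -0.28 to 0.07, FDR = 0.551, limma). Leaving out library 25 alone, which held the value of 8.98 TPM, also gave -0.11 (unadjusted p = 0.155, limma). That library was also the lowest in hippocampal markers, as given below. Its unadjusted p value was 0.05 or above under 20 of 40 alternative settings.

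For the repressors of the second loop and for Tef, no comparison of genotype or age had an unadjusted p value under 0.05. Nr1d1, which encodes Rev-erbα, had medians of 71.6, 69.3, 66.2 and 63.4 TPM in the young WT, young hAβ-KI, old WT and old hAβ-KI groups, which all overlapped. Nr1d2 had medians of 17.9, 20.7, 20.5 and 20.4 TPM in the same order. Tef, of the output arm, had medians of 65.1, 62.2, 62.8 and 61.8 TPM, and the groups overlapped for both genes as well. The interaction of genotype and age, which asks whether the change with age differed between the genotypes, passed for none of the 10 genes, against 0.00643% of all genes tested, and the smallest FDR was that of Cry1 (log2 difference 0.26, FDR = 0.712, limma).

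Leaving out the end libraries moved the fold changes of Dbp by more than those of the other 9 genes. With all mice Dbp had log2 fold changes of -0.08 for genotype at 2 months, 0.15 for genotype at 22 months, -0.24 for age in WT and -0.01 for age in hAβ-KI mice. Without the 6 libraries these were 0.02, -0.05, -0.09 and -0.16, and the signs of both genotype comparisons were the opposite. The SE for age in WT mice was 0.203 with all libraries and 0.0939 without the 6. Neither set passed the threshold in any of the 4 comparisons. Group means of Dbp over the 23 libraries were 97.3 ± 13.7 TPM in 6 young and 91.4 ± 9.57 in 6 old WT mice, and 98.9 ± 15.1 in 6 young and 87.8 ± 5.34 in 5 old hAβ-KI mice. None of the 10 clock genes passed in the 6 comparisons without these libraries, where 0.0386%, 1.48%, 3.9%, 7.45%, 0.00643% and 0.103% of all genes passed for genotype at 2 months, genotype at 22 months, age in WT mice, age in hAβ-KI mice, the interaction and sex.

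**Figure D3:**
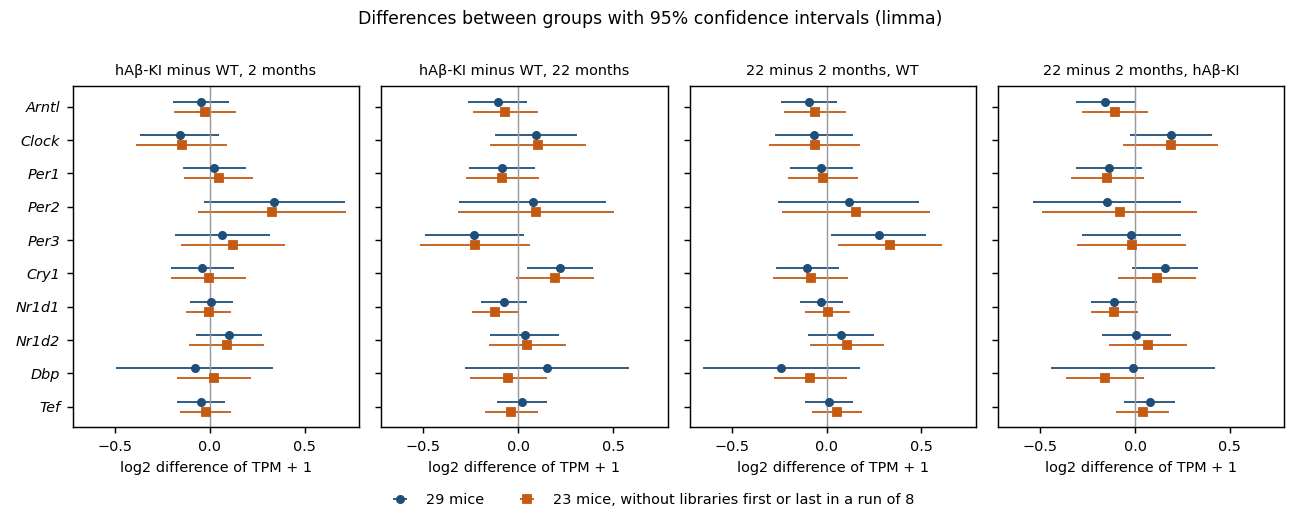
Log2 differences of TPM + 1 (x axis) with 95% confidence intervals for the 10 clock genes (y axis) in the 4 comparisons of groups, from the limma model with all 29 mice (circles) and without the 6 end libraries (squares). The interval of Dbp is the widest with all mice and narrows without the 6 libraries, and of the circles only Cry1 for genotype at 22 months, Per3 for age in WT and Arntl for age in hAβ-KI mice have intervals that leave out 0.

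Sex was compared with the group in the model, and none of the 10 clock genes passed, against 0.0964% of all genes tested. Cry1 was the clock gene with the smallest p value in any comparison. Young WT females had 8.35 to 9.71 TPM (n = 3) and young WT males 6.61 to 7.93 (n = 4), and young hAβ-KI females had 8.34 to 9.1 (n = 3) against 5.94 to 7.7 in males (n = 5). The sexes thus did not overlap in either young group. How many of all genes separate by sex in this way was not counted. With so few mice of each sex, this and the separations that follow are descriptions only. In young WT mice the sexes also did not overlap for Per2 (females 5.11 to 8.1 TPM, males 3.31 to 3.99). Nor did they overlap for Nr1d2 there (22.2 to 23.7, 14.5 to 17.9) or for Dbp in young hAβ-KI mice (104 to 123, 50.3 to 92.95). In old hAβ-KI mice Per3 was higher in all males (9.25 to 10.7) than in females (7.26 to 8.65). Cry1 in old WT mice was 7.64 and 8.08 TPM in females and 6.39 to 7.68 in males. In old hAβ-KI mice Cry1 was 7.69 to 9.51 in females and 7.72 to 9.72 in males, so its sexes overlapped in both old groups. The log2 difference of females minus males was 0.20 (SE 0.0498, 95% confidence interval 0.10 to 0.30, FDR = 0.287, limma), and 0.25 without the 6 end libraries (FDR = 0.159, limma). The SE and the interval treat mice as independent, although mice whose names begin with the same number share a sex. Leaving out library 25 or library 29, both from old hAβ-KI mice, brought this difference of Cry1 under the threshold (FDR = 0.0541 and 0.0763, limma). It did not pass with any other single mouse left out, and the FDR was highest without library 2 (0.513, limma). With 1 mouse left out the difference ranged from 0.18 to 0.22.

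Mice whose names begin with the same number are all of the same sex and of the same group, and there are 17 such numbers, which the labels do not explain. Per3 was more alike within these numbers than 99.2% of all genes tested, with a correlation of 0.70 between mice of 1 number, against a median of 0.05 over all genes. In young WT mice both mice of number 119 had 11.5 and 11.9 TPM of Per3, and both of number 120 had 5.76 and 6.98. The old hAβ-KI pairs lay closer still, at 9.25 and 9.44 TPM for number 66 and 7.26 and 7.32 for number 67. Other numbers were less alike, with 7.95 and 10.4 TPM in the old WT mice of number 69, and 8.95 and 11.1 TPM for number 175 and 6.04 and 8.27 TPM for number 209 among young hAβ-KI mice. Nr1d2 (0.55, 95.4th percentile) and Cry1 (0.53, 94.8th percentile) followed, while Nr1d1 (-0.32) and Clock (-0.14) were less alike within numbers than between them. The correlation was 0.60 for Per3, 0.66 for Nr1d2 and 0.60 for Cry1 without the 6 end libraries. Leaving these libraries out breaks the pairs of numbers 119, 66, 70 and 175, so these values rest on fewer pairs. Mice that share a number also have neighbouring library numbers, and what they share beyond group and sex was not tested.

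**Figure D4:**
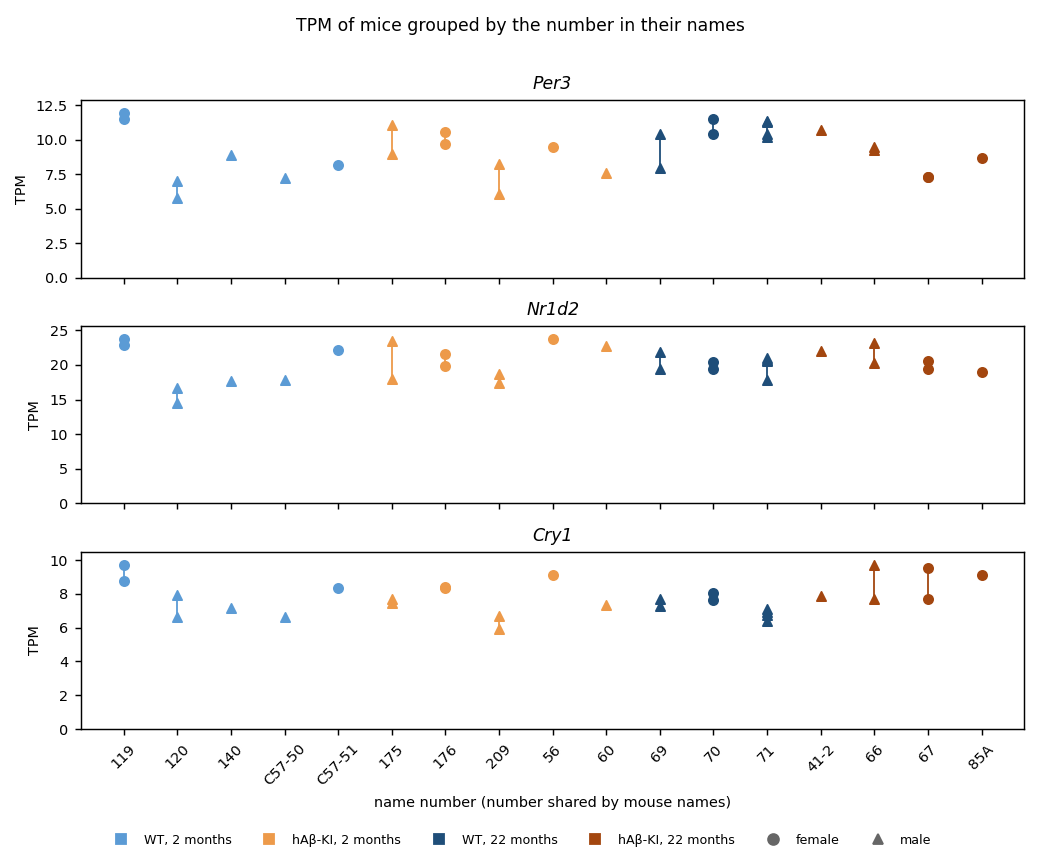
TPM (y axis, from 0) of Per3, Nr1d2 and Cry1 in each mouse, arranged by the number at the start of the mouse name (x axis), coloured by group, with circles for females, triangles for males and a line joining mice of 1 number. Per3 lies at 11.5 and 11.9 TPM in the mice of number 119 and at 5.76 and 6.98 in those of number 120.

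Genes of the clock were then compared from mouse to mouse, since mice killed at different hours would differ in several of them together. Each gene was expressed as the deviation from its group mean of log2(TPM + 1), and the 45 pairs were tested by permuting mice within groups. No pair passed an adjusted p value of 0.05, 12 pairs had an unadjusted p value under 0.05, and r was positive for 34 pairs and negative for 11. How often pairs of other genes reach such values was not counted, so these counts cannot be read as particular to the clock genes. No Spearman rho passed either. The highest was that of Per2 with Nr1d2, with a Pearson r of 0.64 (permutation p = 0.00196, adjusted p = 0.0882) and a Spearman rho of 0.63 (permutation p = 0.00236). Its sign was the same in all 4 groups. It was 0.72 without libraries 17 and 19, the mice farthest from the median of Per2, where the adjusted permutation p was 0.0072, and 0.61 without the 6 end libraries (adjusted permutation p = 0.319). With sex removed as well as the group means it was 0.50 (permutation p = 0.0561, adjusted p = 0.361), and with 1 value per name number 0.62 (permutation p = 0.0663, adjusted p = 0.284).

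Per3, Nr1d2, Cry1 and Tef were picked from these results because all 6 pairs among them had a positive r with an unadjusted permutation p value under 0.05. That all 6 did so is therefore no separate result, and none of the 6 passed after adjustment. Per3 had an r of 0.55 with Nr1d2 (rho 0.53), of 0.49 with Cry1 (rho 0.47) and of 0.46 with Tef (rho 0.48), each with an adjusted permutation p of 0.158. These fell to 0.50, 0.45 and 0.36 without the mice of libraries 5 and 19, which lay farthest from the median of Per3. With sex removed as well as the group means they were 0.17, 0.21 and 0.21, and the other 3 pairs were 0.14 (Nr1d2 with Cry1), 0.16 (Tef with Nr1d2) and 0.13 (Tef with Cry1). None of the 6 then had an unadjusted p value under 0.05 (permutation p from 0.342 to 0.615). Clock, an activator of the Per genes, had an r of 0.48 with Per1 (rho 0.43) and of 0.55 with Per3 (rho 0.49), both with an adjusted permutation p of 0.155, and r without the 2 farthest mice was 0.56 and 0.40. With 1 value per name number the r of Clock was 0.15 with Per1 (permutation p = 0.601) and 0.61 with Per3 (permutation p = 0.0396, adjusted p = 0.284). Arntl, the gene that peaks opposite to Dbp and the Per genes in a running clock, had r of 0.18 with Per1, 0.16 with Per2, 0.12 with Per3 and -0.12 with Dbp. None of these 4 had an unadjusted p value under 0.05.

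Dbp had negative r with 8 of the other 9 genes when all libraries were used, the largest with Clock (r -0.42, rho -0.52, adjusted permutation p = 0.158) and Per2 (r -0.42, rho -0.43, adjusted permutation p = 0.162). Without the 6 end libraries the r of Dbp with Tef was 0.44 in place of 0.0013, with Nr1d2 0.33 in place of -0.20 and with Nr1d1 0.29 in place of -0.18. That with Clock was -0.32 and that with Per2 -0.25. Of all 45 pairs 33 were then positive, 6 had an unadjusted p value under 0.05 and none passed after adjustment (smallest adjusted permutation p = 0.319).

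**Figure D5:**
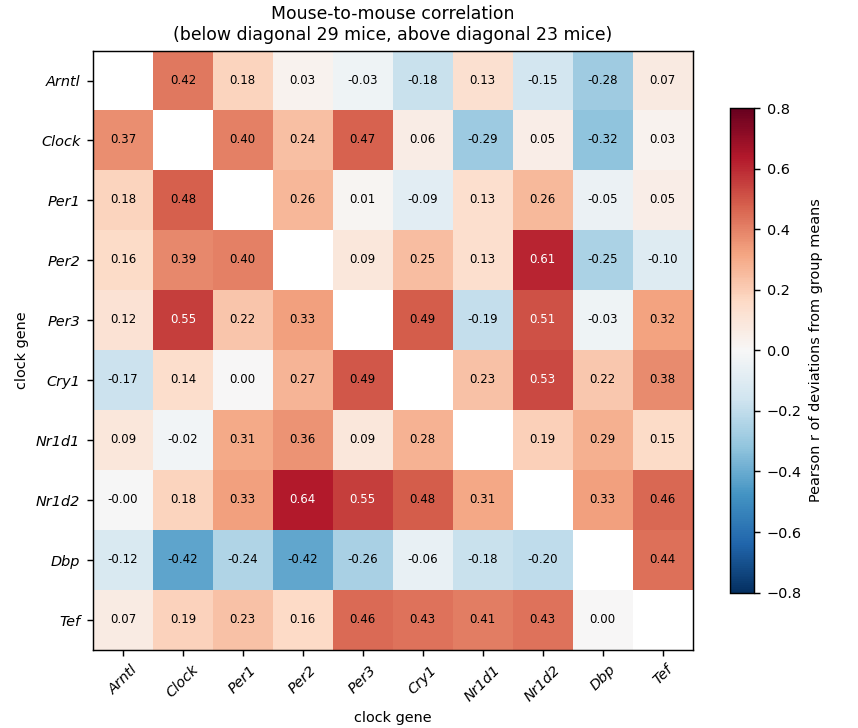
Pearson r between the 10 clock genes of the deviations from group means of log2(TPM + 1), over 29 mice below the diagonal and over the 23 mice without the end libraries above it, with colour from -0.8 (blue) to 0.8 (red). With all mice Dbp is negative with 8 of the other 9 genes and close to 0 with Tef, and over the 23 mice it is positive with Tef, Nr1d1, Nr1d2 and Cry1.

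As a description of the genes whose pattern was most like that of Dbp, the highest r over 29 mice were those of Pink1 (0.94), 6430548M08Rik (0.94), Wrnip1 (0.94), Pacs1 (0.93) and Rasd2 (0.93), and the lowest those of Abca1 (-0.74), Wdr13 (-0.74) and Agbl5 (-0.73). The clock genes were not candidates for this list, so their absence from it is not a result. Their own r with Dbp over 29 mice lay between -0.42 (Clock) and 0.0013 (Tef). In all, 216 genes had an r beyond 0.8 in size to Dbp, against 0 to 4 for each of the other 9 clock genes. Over the 23 mice without the end libraries 2 genes did so for Dbp, both with a negative r, Stk10 (-0.82) and Nek1 (-0.80), and the highest were Med16 (0.77), Pnrc1 (0.75) and Far2 (0.75). Pink1 itself measured 116 to 156 TPM in the 6 end libraries and 231 to 332 TPM in the others. For Arntl the highest r over 29 mice were lower, at 0.73 for Rb1 and 0.67 for Usp15, Alpk1 (0.67), Hnrnpdl (0.66) and Rasl11a (0.66) following, and the lowest was that of Syndig1l (-0.69).

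The ratio of Dbp to Arntl TPM, which swings widely over the day where the clock runs, was 7.53 ± 2.52 in young WT and 6.82 ± 2.08 in old WT mice, and 7.32 ± 2.23 in young and 7.84 ± 0.792 in old hAβ-KI mice. Without the 6 end libraries it was, in the same order, 8.15 ± 2.11, 7.86 ± 0.864, 8.3 ± 1.48 and 7.97 ± 0.814. The ratios of single mice overlapped between all groups in both sets.

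Further genes of the clock were counted from a list of 23 symbols, of which 22 were in the table and tested. None passed for genotype at either age, for age in WT mice, for the interaction or for sex. With age in hAβ-KI mice 2 of the 22 rose, which is near the 9.18% of all genes tested that passed there. Of these 2, Bhlhe41 also passed without the 6 end libraries. Bhlhe41 (also called Dec2), which encodes a repressor that competes for E-boxes, ranged from 12.8 to 16.8 TPM in young hAβ-KI mice (median 13.7) and from 16.9 to 21.3 TPM in old ones (median 19.5), without overlap. The log2 fold change was 0.43 (SE 0.0719, FDR = 0.000553, limma), and 0.44 without the 6 end libraries (FDR = 0.00157, limma). In WT mice it was 0.10 (FDR = 0.479, limma), and the difference between the genotypes in this change was 0.32 (FDR = 0.617, limma), which did not pass.

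Lists that respond to the state of an animal at death were counted beside the clock genes, against 5% of all genes tested that passed with age in WT and 9.18% in hAβ-KI mice. Of 12 glucocorticoid-responsive genes 1 fell with age in WT mice (Tsc22d3, log2 fold change -0.30, FDR = 0.045, limma), of 12 activity-regulated genes 1 rose (Fosb, 0.29, FDR = 0.095, limma), and of 8 temperature-regulated genes 1 fell with age in WT and in hAβ-KI mice (Hsp90aa1, -0.23 and -0.28, FDR = 0.0871 and 0.0273, limma). None of these calls passed without the 6 end libraries, where there were fewer mice and the log2 fold changes were -0.25 for Tsc22d3, 0.28 for Fosb and -0.23 for Hsp90aa1 in either genotype. No gene of the 3 lists passed for genotype. The hippocampal origin was checked with 10 neuronal markers, all detected in every mouse, whose summed TPM was 453 in library 25 and 680 to 855 in the other 28 libraries. Library 25 also held the lowest Arntl value (8.98 TPM) and the highest Tef value (74.7 TPM). In hAβ-KI mice 3 of the 10 markers fell with age (Neurod6, Cpne4 and Fibcd1), and without the 6 end libraries Fibcd1 did not pass and the log2 fold change of Neurod6 was -0.21 in place of -0.44. Of 5 astrocyte markers 1 (Gfap) and of 5 microglial markers 4 (Cx3cr1, Csf1r, C1qa and Tmem119) rose with age in WT and in hAβ-KI mice. Of these, Csf1r in hAβ-KI mice did not pass without the 6 libraries. Of 5 pan-neuronal markers 1, Rbfox3, was lower in old hAβ-KI mice than in young hAβ-KI or old WT mice. The median log2 fold changes of the 5 in these 2 comparisons were -0.13 and -0.01. With age in WT mice 1 of the same 5 (Stmn2) and 1 of 5 oligodendrocyte markers (Mog) fell. In that comparison 1 of 5 endothelial markers (Flt1) rose. In these bulk samples fewer cells of a type and less RNA per cell cannot be told apart, and their part in the values of the clock genes was not tested. Choroid plexus transcripts ranged from 41.3 to 18070 in summed TPM between mice, and none of the 8 passed in any comparison.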

How the data were processed

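Hippocampal RNA of 29 mice was made into Smart-seq2 and Nextera libraries, which do not mark strand. The authors aligned reads with STAR 2.5.1b to GRCm38, estimated expression with RSEM 1.2.22 and deposited TPM per gene, not counts, so limma was used where the study used edgeR. TPM sum to a fixed total before the table was restricted to protein-coding and long non-coding genes (717535 to 816940 per mouse in the table), so a rise in abundant transcripts lowers the others. Depth is unknown.

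The 15554 genes that reached a TPM of 1 in 2 or more mice were fitted on log2(TPM + 1) with limma 3.58.1 in R 4.3.3, in a joint model of all groups whose prior variance followed expression. Threshold: FDR under 0.1 over all genes and p value under 0.05. Fold changes on this scale understate changes of low genes. Gene pairs were tested with 100000 permutations within groups (two-sided), adjusted over 45 pairs. No 2 libraries held the same values. p values measure the spread between mice, some of which may share a cage or litter. Symbols came from the table; positions and windows came from GENCODE M21 and RefSeq. The clock genes, the companion lists and the markers were chosen with earlier results of these data known. All 10 clock genes are named, other clock genes where past the threshold (except 1, which is not reported here), at most 4 per companion list where past it, and for Dbp and Arntl the 5 genes of highest and 3 of lowest r; the other genes named with the end libraries, and the split by library number itself, were chosen after the values were seen. Models were tested on simulated data.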

Additional observations from a re-analysis of the deposited data

Results flagged for a closer look

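Of 40 combinations of clock gene and group examined for a sample far from the others, 1 was flagged: Per3 in old WT mice, where the mouse of library 14 had 7.95 TPM and the next lowest had 10.2, a gap of 0.67 of the range of the group. This library does not hold the first or last number of a run. Chance flags about 1 in 20 groups, so 1 flag in 40 is no more than that. The low Dbp values of the end libraries were not flagged by this measure in any of the 4 groups, of which 2 hold 1 such library and 2 hold 2.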

How the results depend on the processing

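The count of clock genes past the threshold stayed at 0 for genotype at 2 and at 22 months and for age in WT and in hAβ-KI mice under all 40 alternatives of each (another pseudocount, 2 other filters, 2 other scalings, a fit of the compared groups alone, a term for sex, no variance trend, mice of 1 name number treated as correlated, each mouse left out, the end libraries left out, and their position as a covariate), and for the interaction under 39. For sex it was 0 to 1 with 1 mouse left out, the 1 being Cry1 without library 25 or library 29 of the old hAβ-KI mice, and 0 under the other alternatives; the cause was not tested. The count of gene pairs past the threshold was 1 without the 2 mice farthest from the median, and 0 under the other 7 alternatives. Dbp changed sign: for genotype at 2 months it was 0.021 without the 6 end libraries and 0.013 with their position as a covariate, for genotype at 22 months -0.053 without the 6, and for age in hAβ-KI mice 0.025 with quantile normalization and 0.0039 rescaled to nuclear protein-coding genes. With 1 mouse left out it ranged from -0.199 to 0.025 for genotype at 2 months, from 0.0008 to 0.222 for genotype at 22 months, from -0.36 to -0.0907 for age in WT mice and from -0.115 to 0.068 for age in hAβ-KI mice. Both alternatives built on the library number were chosen after seeing the data. No paired analysis was possible because the mouse names give the groups no shared replicate numbers. The spread between mice limits what could be seen: 95% confidence intervals of clock genes between 2 groups reached 0.71 on the log2 scale.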
